A study of Mus musculus with 6 samples.

Results

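Vegfa, Bnip3, Egln3 and Ndrg1 are hypoxia-response genes whose products are not glycolytic enzymes. They were chosen by symbol from a table of 854 genes, after their counts in Themis conditional knockout (cKO) and wild-type (WT) cells were known. The 4 genes were all found in it. The cells were OT-I cells, mouse CD8 T cells with a transgenic receptor for an ovalbumin peptide, taken as naive cells from spleen and lymph nodes. Both genotypes carried the OT-I receptor and were kept for 3 days in medium with 1 µg/ml of IL-2 before RNA was sequenced. The Themis cKO group, with a conditional deletion of the gene for a T-lineage signalling protein, and the WT group had 3 libraries each. The labels used here do not name the Cre driver of the knockout or say whether libraries came from separate animals or cultures.

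In well-oxygenated cells, prolyl hydroxylases mark the alpha subunits of the hypoxia-inducible factors (HIF) for destruction by the VHL ubiquitin ligase. When oxygen is scarce the alpha subunits persist, pair with ARNT and bind a short hypoxia-response element in their target genes. In T cells, HIF-1 alpha also accumulates in normal oxygen after antigen receptor or cytokine signals. Vegfa encodes a secreted ligand that acts on endothelial cells. Egln3 encodes the prolyl hydroxylase PHD3, itself a HIF target. Bnip3 encodes a mitochondrial outer membrane protein that recruits the autophagy machinery. Ndrg1 encodes a cytoplasmic protein induced by hypoxia and cell stress.

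The sequences just upstream of the transcription start are shown because the 4 genes are known targets of the same factor. RefSeq promoter windows on GRCm38.p6 were found for 3 of the 4 genes, and the 250 bases before the start were searched. The core letters of the hypoxia-response element, ACGTG or GCGTG on either strand, are in capitals. P4ha2, a collagen prolyl hydroxylase gene from the wider hypoxia pathway, is shown with them because it had the lowest ratio of that pathway. All are printed 5′ to 3′ on the gene's own strand. They lie at chr17:46032378-46032627 (minus strand), chr7:138909507-138909756 (minus strand), chr12:54203875-54204124 (minus strand) and chr11:54100674-54100923 (plus strand).
Vegfa promoter: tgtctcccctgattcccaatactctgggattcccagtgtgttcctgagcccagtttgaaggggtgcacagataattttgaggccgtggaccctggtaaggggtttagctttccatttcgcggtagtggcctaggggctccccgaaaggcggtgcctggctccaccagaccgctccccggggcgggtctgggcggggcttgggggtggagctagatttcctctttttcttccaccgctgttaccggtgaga
Bnip3 promoter: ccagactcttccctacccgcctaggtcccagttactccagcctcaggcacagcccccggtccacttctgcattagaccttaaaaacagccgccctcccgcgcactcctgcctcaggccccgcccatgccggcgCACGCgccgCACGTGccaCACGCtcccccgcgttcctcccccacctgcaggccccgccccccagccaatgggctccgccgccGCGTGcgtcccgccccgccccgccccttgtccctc
Egln3 promoter: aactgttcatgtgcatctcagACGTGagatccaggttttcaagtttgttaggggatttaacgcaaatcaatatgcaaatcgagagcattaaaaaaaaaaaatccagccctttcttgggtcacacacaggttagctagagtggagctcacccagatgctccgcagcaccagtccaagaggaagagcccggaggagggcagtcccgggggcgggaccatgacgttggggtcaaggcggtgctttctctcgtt
P4ha2 promoter: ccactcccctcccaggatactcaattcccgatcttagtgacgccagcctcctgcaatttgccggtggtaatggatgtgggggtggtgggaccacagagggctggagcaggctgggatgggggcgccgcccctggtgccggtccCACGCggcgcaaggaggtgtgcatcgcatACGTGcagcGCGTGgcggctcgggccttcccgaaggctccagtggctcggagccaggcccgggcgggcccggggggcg

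The Bnip3 window held 5 matches, beginning 117, 108, 107, 99 and 35 bases before the start. The pair at 108 and 107 is the same palindrome, CACGTG, read on both strands, and those letters are also an E-box, a site type bound by MYC and related factors. Of the Bnip3 window, 13 bases lie in an exon of a GENCODE M21 transcript. The Egln3 window held 1 match, 229 bases before the start, and P4ha2 held 3. Vegfa held none in the 250 bases before its first annotated start, and sequence farther upstream was not searched. RefSeq has a second Vegfa start inside the gene, whose upstream window held 2 matches but lay mostly in exon sequence (218 of 250 bases), so it is not shown.

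Such short letters are common. Of 32851 RefSeq windows of this length, 38.6% held at least 1 match, and among the 9178 windows with a GC share of at least 60% it was 63.8%. The GC share was 59.2% for Vegfa, 72.4% for Bnip3, 50.8% for Egln3 and 70% for P4ha2. A match is a description of letters, and binding was not measured.

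**Figure D1:**
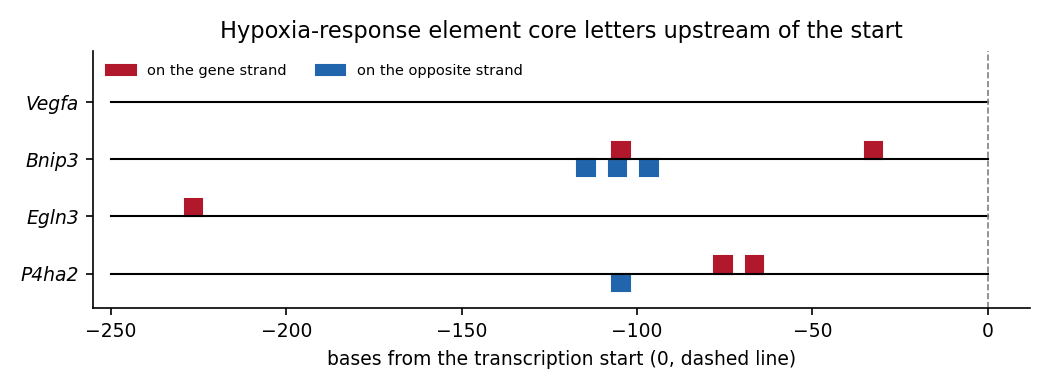
Positions of the letters ACGTG or GCGTG in the 250 bases upstream of the start of Vegfa (first annotated start), Bnip3, Egln3 and P4ha2, with the distance from the start in bases on the x axis. Red blocks above a line are on the gene strand and blue blocks under it on the opposite strand. Bnip3 has 5 matches, P4ha2 has 3, Egln3 has 1 and Vegfa has none.

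The 854 genes are a selection, not the transcriptome. Mean counts of the genotypes gave log2 ratios that were all at or under -0.94 or at or over 1.06, leaving out 27 genes at 0 in a genotype, for which no ratio exists. Counts over the table summed to 424605 to 437437 in the Themis cKO libraries and to 946766 to 1054442 in the WT libraries. These sums are not depths, which are unknown here. Fold changes therefore assume equal depth of the genotypes. The targeted gene, Themis, had 977, 1227 and 1215 scaled counts in the Themis cKO libraries, against 5524, 5784 and 4962 in the WT libraries. None of the 7 T-cell markers examined was in the table, so the labelled cell type was not checked here.

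All 4 genes were lower in Themis cKO cells, at 9.77% to 12.9% of the WT mean. For each, the highest Themis cKO library lay at least 6.40-fold under the lowest WT library. Of the 794 tested genes, 75.7% were lower with no overlap of the genotypes. The members were chosen on this contrast, so nothing is read from that share and no test of their differences is given. Scaled counts are estimated counts divided by a factor that evens out libraries within a genotype. With bulk RNA, fewer cells expressing a gene and less RNA per cell cannot be told apart.

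Vegfa (Gene ID 22339, on chromosome 17 from 46016993 to 46032377 in GRCm38.p6) had 86.6, 84.6 and 81.8 scaled counts in the Themis cKO libraries, against 883, 879 and 828 in the WT libraries. The libraries of each genotype lay close together, and the genotypes were far apart. The log2 fold change was -3.35 with a standard error of 0.13, which is 10.2-fold lower. Vegfa thus had the largest fold difference of the 4 genes, and 9.80% of the 602 table genes that were lower had a larger one. Its place before Bnip3 is not firm, since without Themis cKO replicate 3 Vegfa stood at -3.33 and Bnip3 at -3.35.

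Egln3 (Gene ID 112407, chromosome 12, 54178981 to 54203874) had 192, 306 and 279 scaled counts in the Themis cKO libraries, against 2112, 2048 and 2230 in the WT libraries. Themis cKO replicate 1 was the lowest, and the WT libraries were nearly level. The log2 fold change was -3.04 ± 0.17 (standard error), or 8.22-fold lower. Egln1 and Egln2, which encode the other HIF prolyl hydroxylases, were not among the table's genes and were not analysed here.

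Bnip3 (Gene ID 12176, chromosome 7, 138890836 to 138909506) had 285, 371 and 490 scaled counts in the Themis cKO libraries, against 3450, 3493 and 3134 in the WT libraries. The Themis cKO libraries were spread over a 1.72-fold range while the WT libraries spanned 1.11-fold. The log2 fold change was -3.14 ± 0.18 (standard error), or 8.79-fold lower. Annotation places the antisense gene Gm45507 and the pseudogene Gm18258 over Bnip3. The sources used here do not say whether counting used strand, so reads from the antisense gene cannot be told apart from those of Bnip3.

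Ndrg1 (Gene ID 17988, chromosome 15, 66929318 to 66969641) had 473, 587 and 611 scaled counts in the Themis cKO libraries, against 3989, 4668 and 4304 in the WT libraries. Replicate 1 was the lowest library in both genotypes. The log2 fold change was -2.95 ± 0.12 (standard error), or 7.75-fold lower. The antisense gene Gm17035 and the non-coding gene Gm2895 overlap Ndrg1 on the other strand, with the same limit. No RefSeq gene overlaps Vegfa or Egln3. Of the 8 protein-coding neighbours of the 4 genes only St3gal1, next to Ndrg1, was in the table.

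**Figure D2:**
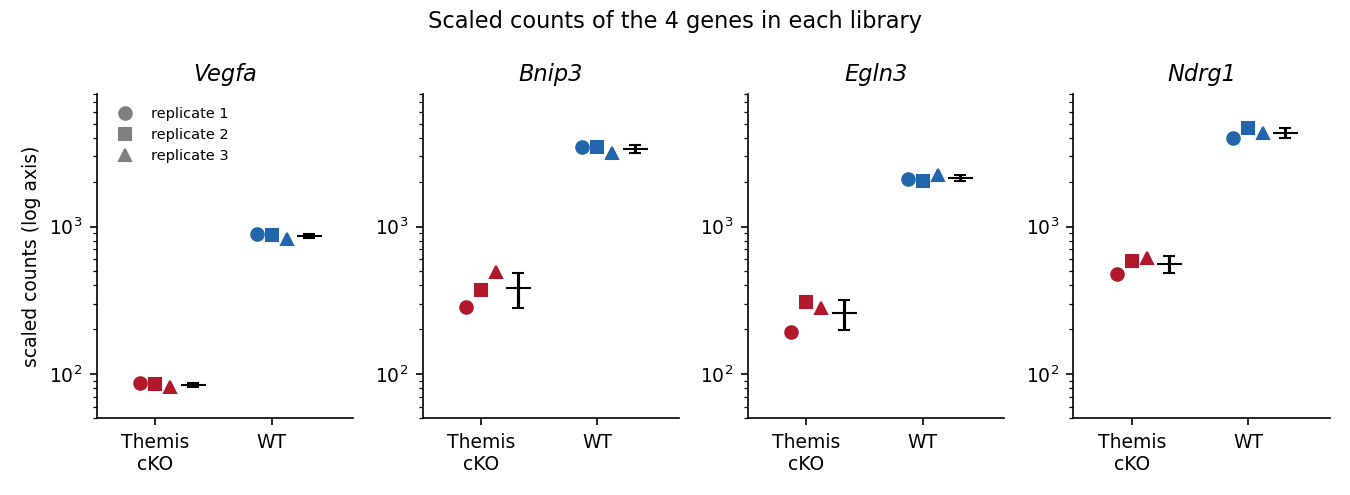
Scaled counts on a log axis for Vegfa, Bnip3, Egln3 and Ndrg1 in the 3 Themis cKO libraries (red) and the 3 WT libraries (blue), with the replicate shown by the marker and the mean ± SD in black beside each group. The genotypes do not overlap for any of the 4 genes, Vegfa is tight in both, and Bnip3 ranges from 285 to 490 in Themis cKO.

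The 4 fold differences lay close together, between 7.75-fold and 10.2-fold. Ratios taken inside a library do not depend on scaling between libraries. Vegfa had 18.3, 14.4 and 13.4 counts per 100 Ndrg1 counts in the Themis cKO libraries, against 22.1, 18.8 and 19.2 in the WT libraries. Its ratio to Ndrg1 was thus lower in Themis cKO without overlap, by 1.31-fold on the means. For Bnip3 it averaged 67.8 ± 10.8 in Themis cKO and 78.0 ± 7.37 in WT (SD, n = 3 each). For Egln3 it was 46.1 ± 5.74 in Themis cKO and 49.5 ± 4.94 in WT (SD, n = 3 each). In both cases the libraries of the genotypes overlapped.

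Levels can be compared between genes only per length. Per kb of the longest GENCODE M21 transcript, Bnip3 had the highest level in both genotypes, at 217 ± 58.5 scaled counts per kb in Themis cKO and 1913 ± 112 in WT (SD, n = 3 each). Vegfa had the lowest, at 24.4 ± 0.70 scaled counts per kb in Themis cKO and 250.2 ± 8.96 in WT. Between them, Ndrg1 stood at 138 ± 18.2 in Themis cKO and 1067 ± 83.9 in WT, and Egln3 at 97.3 ± 22.3 in Themis cKO and 800.2 ± 34.6 in WT. The order of Ndrg1 and Egln3 depends on the length used. Per kb of all annotated exons merged, Ndrg1 had 84.5 scaled counts per kb in Themis cKO and 655 in WT, under Egln3, which has a single transcript and keeps its values.

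The 4 genes differed in how much their Themis cKO libraries varied. The SD of log2 scaled counts in Themis cKO was 0.39 for Bnip3, 0.35 for Egln3, 0.20 for Ndrg1 and 0.04 for Vegfa, against a median of 0.15 over 461 tested genes with a mean of at least 50 in each genotype. Bnip3 exceeded 89.8% of those genes and Egln3 exceeded 87.6%. In WT the SDs were 0.09, 0.06, 0.11 and 0.05 in the same gene order, against a median of 0.13. For Bnip3 in Themis cKO the coefficient of variation was 26.9%, where counting error alone would give 5.12%. For Vegfa in Themis cKO it was 2.84%, under the 10.9% that counting error alone would give. So close an agreement is not read as a trait of Vegfa.

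Themis cKO replicate 1 was the lowest library of its genotype for Bnip3, Egln3 and Ndrg1 but not for Vegfa. It was also the lowest for 7 of the 18 other hypoxia-pathway genes of the table (38.9%), against 35.6% of all 794 tested genes. Genes listed as B-cell or NK-type markers differed between the same libraries. The 3 B-cell markers of 6 that were in the table summed to 118, 241 and 308 scaled counts in Themis cKO replicates 1 to 3, against 60 to 102 in the WT libraries. The 6 NK-type markers, all in the table, summed to 2213, 1606 and 1256 in the same Themis cKO libraries, against 482 to 762 in WT. Which cells expressed these markers was not measured, and the part of such cells in the spread was not tested. Without Themis cKO replicate 1 the log2 fold changes were -2.96 for Bnip3, -2.86 for Egln3 and -2.85 for Ndrg1, and Vegfa stood at -3.37.

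Some of the other marker lists held genes with opposite differences. The 2 myeloid and dendritic markers of 10 in the table summed to 164 to 271 scaled counts in Themis cKO and to 387 to 492 in WT. Of them Mpeg1 averaged 51.0 in Themis cKO and 385 in WT, while Itgax was higher in Themis cKO, with 155 there and 64.1 in WT. The 2 MHC class II markers of 5 summed to 54.4 to 192 in Themis cKO and to 253 to 307 in WT. H2-Ab1 carried that sum, with a mean of 76.7 in Themis cKO and 254 in WT, while H2-Eb1 averaged 55.2 in Themis cKO and 17.2 in WT. The 2 stromal and endothelial markers of 7, Kdr and Madcam1, summed to 4.03 to 19.2 in Themis cKO and to 29.5 to 57.6 in WT. The 6 handling-stress markers of 8, which include Fos and Jun, summed to 1386 to 1489 in Themis cKO and to 3805 to 4008 in WT. The 3 granulocyte, mast and erythroid markers of 9 summed to 7.05 to 35.3 in Themis cKO and to 1.97 to 12.5 in WT, with overlap. Within that list Hbb-bs averaged 10.4 in Themis cKO and was at 0 in WT, while Hbb-bt was at 0 in Themis cKO and averaged 5.17 in WT. The part of these lists in the differences of the 4 genes was not tested.

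**Figure D3:**
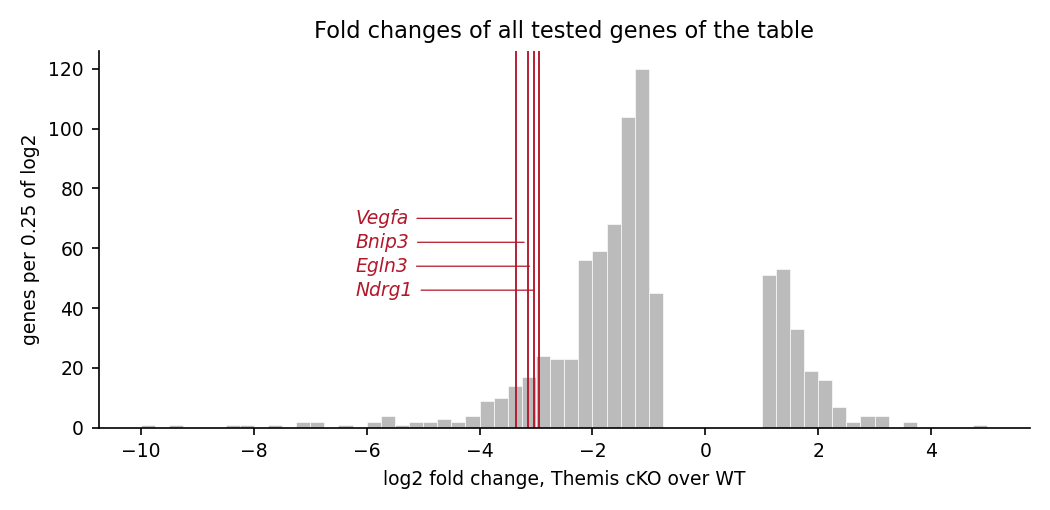
Distribution of log2 fold changes, Themis cKO over WT, of the 794 tested genes in bins of 0.25, with the 4 genes as red lines. The 4 lines lie between -3.35 and -2.95, beyond the bulk of the lower genes, and the gap around 0 is the range that the table leaves out.

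The wider hypoxia pathway was represented by 65 other symbols, of which 18 were in the table. The other 47, among which Ero1a is another name of Ero1l, were not analysed here. The list also held relatives of Ndrg1 and genes of VEGF ligands and receptors, so Ndrg2 and Kdr count among the 18. All 18 were tested and all 18 fell in Themis cKO with the genotypes at equal depth, none rose, and the libraries did not overlap for any of them (edgeR quasi-likelihood test, largest Benjamini-Hochberg adjusted p = 0.00633). All 794 tested genes were called, 75.8% of them lower, since the table holds only genes with large differences. The calls and the lack of overlap of the 18 genes thus say little beyond that selection. The median log2 fold change was -1.51 over the 18 genes and -1.34 over all tested genes. With the 3 scalings that centre the table on itself, 7 of the 18 stayed called lower and 2, Kdm3a and Zfp395, were called higher. Those scalings set the typical gene of a selected table to no change, so a lost call or turned sign may follow from the selection. In the authors' deposited table all 18 had negative log2 values, from -4.38 to -0.61.

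Paralogs of Bnip3 and Ndrg1 had smaller fold differences than those members. Bnip3l, which encodes NIX, the paralog of BNIP3 in mitophagy, had 1217, 1384 and 1475 scaled counts in the Themis cKO libraries, against 3890, 3914 and 3510 in the WT libraries (log2 fold change -1.47 ± 0.10, with the standard error, as for the log2 fold changes that follow). Within each library, Bnip3 had 23.4, 26.8 and 33.2 counts per 100 Bnip3l counts in Themis cKO, against 88.7, 89.2 and 89.3 in WT. The ratio was almost level over the WT libraries and on average 3.2-fold lower in Themis cKO, whatever the depth of the libraries. Ndrg2, of the same family as Ndrg1, had a log2 fold change of -1.55 ± 0.13. Ndrg1 had 343, 362 and 417 counts per 100 Ndrg2 counts in Themis cKO, against 896, 1094 and 986 in WT, again without overlap. These ratios hold members chosen on this contrast and are given without a test. Centring the table on itself ended the calls of Bnip3l and Ndrg2 (adjusted p from 0.160 to 0.217 and from 0.121 to 0.132, edgeR and DESeq2, against at most 0.000123 under the other alternatives).

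Kdr encodes the main VEGF receptor of endothelial cells. It had 3.02, 6.89 and 17.2 scaled counts in the Themis cKO libraries, against 28.6, 21.6 and 45.1 in the WT libraries, a low and uneven signal. Its log2 fold change was -1.81 ± 0.52. With 1 library left out it ranged from -2.64, without Themis cKO replicate 3, to -1.40, without Themis cKO replicate 1. The other VEGF receptor genes examined, Flt1 and Nrp1, and the ligand genes Vegfb, Vegfc and Pgf were not among the table's genes.

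Collagen-modifying hydroxylases included the gene with the lowest ratio of the pathway. P4ha2, a catalytic subunit of collagen prolyl 4-hydroxylase, had 15.1, 17.7 and 13.1 scaled counts in the Themis cKO libraries, against 428, 453 and 403 in the WT libraries, 27.7-fold lower (log2 fold change -4.79 ± 0.18). Its paralog P4ha1 had a log2 fold change of -1.48 ± 0.09. Within a library P4ha2 had 1.4 ± 0.23 counts per 100 P4ha1 counts in Themis cKO and 14.0 ± 0.34 in WT (SD, n = 3 each). Plod2, a lysyl hydroxylase of collagen, had a log2 fold change of -2.58 ± 0.14. Centring the table on itself ended the call of P4ha1 (adjusted p from 0.121 to 0.142, edgeR and DESeq2, against at most 3.99e-05 under the other alternatives).

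Ak4, a mitochondrial adenylate kinase, had 59.4, 115 and 135 scaled counts in the Themis cKO libraries, against 1145, 1271 and 1062 in the WT libraries (log2 fold change -3.49 ± 0.25). As with Bnip3 and Egln3, Themis cKO replicate 1 was the lowest.

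A further 4 genes stayed called lower under every scaling, as did P4ha2, Plod2 and Ak4. Ddit4, an inhibitor of mTORC1 signalling, had a log2 fold change of -2.01 ± 0.13, and Mxi1, an antagonist of MYC, stood at -2.05 ± 0.14. Ankrd37, a small ankyrin-repeat gene, had 57.4, 60 and 54.5 scaled counts in the Themis cKO libraries, against 308, 363 and 276 in the WT libraries (-2.46 ± 0.16). Ero1l, an oxidase of protein folding in the endoplasmic reticulum, stood at -1.78 ± 0.09.

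The remaining 7 genes had log2 fold changes from -1.39 to -1.0, near the smallest difference that the table holds. Fam162a, a mitochondrial protein gene, had a log2 fold change of -1.39 ± 0.11 and Stc2, a secreted glycoprotein gene, of -1.30 ± 0.24. Both calls ended when the table was centred on itself (adjusted p from 0.477 to 0.516 and from 0.979 to 0.983, edgeR and DESeq2, against at most 0.00301 under the other alternatives), as did that of Kdr (0.427 to 0.526, against at most 0.0350). Plin2, a lipid droplet coat gene, stood at -1.11, the regulatory enzyme gene Pfkfb3 at -1.07 and the transcription factor Bhlhe40 at -1.02. Kdm3a, a histone demethylase, stood at -1.01 and Zfp395 at -1.0. These 5 genes turned sign with the table-centred scalings. In the authors' deposited table they had negative log2 values, -0.61, -1.03, -0.75, -0.90 and -0.95 in the same order. For the 4 members the table-centred scalings gave -2.06 for Vegfa, -1.84 for Bnip3, -1.74 for Egln3 and -1.66 for Ndrg1, so each remained lower.

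**Figure D4:**
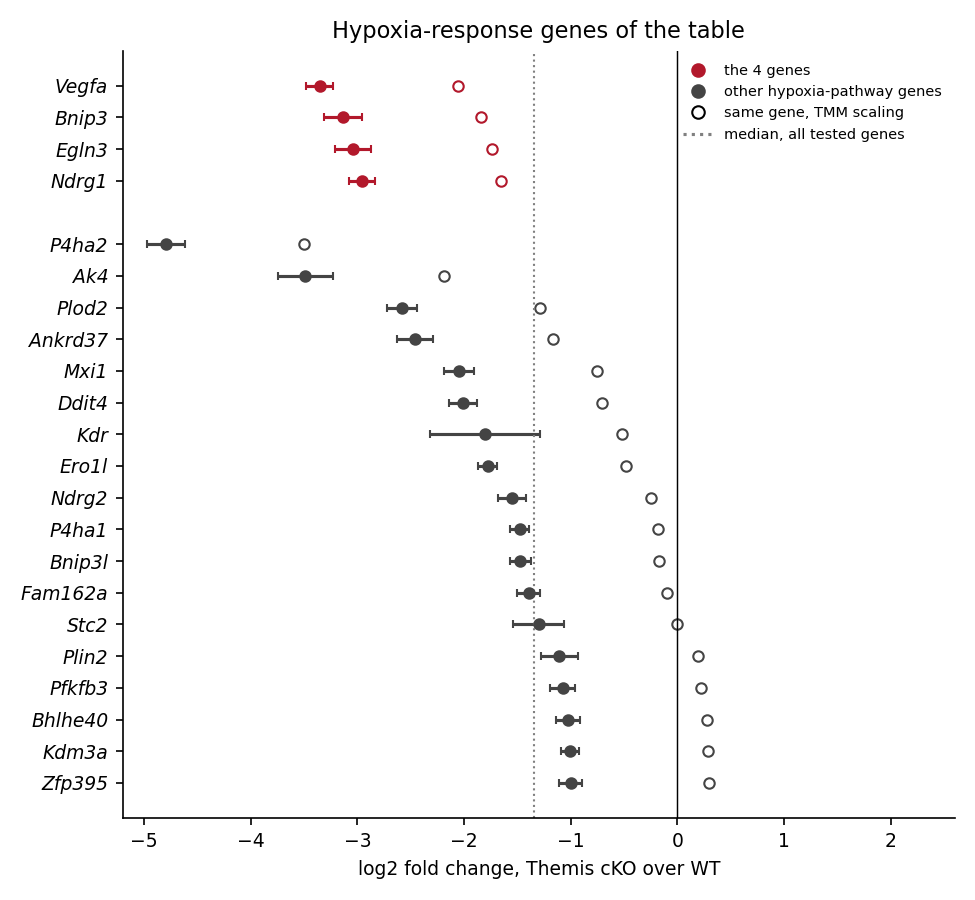
Log2 fold changes, Themis cKO over WT, of the 4 genes (red) and the 18 other hypoxia-pathway genes in the table (dark grey), with the standard error as bars. Open circles give the same gene with TMM scaling over the table, which moved the median by 1.30, and the dotted line marks the median of all tested genes, -1.34. P4ha2 has the lowest value at -4.79, and 5 of the 18 genes lie above 0 with TMM scaling.

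Many glycolytic genes are HIF targets too, and 10 of the 19 on the glycolysis list were in the table, with a median log2 fold change of -1.31 and a range from -3.53 to -1.0. The lowest was Aldoc, an aldolase gene, whose value of -3.53 lay below those of all 4 members, and Slc16a3 at -3.25 lay below those of Bnip3, Egln3 and Ndrg1. The members were thus not lower than every glycolytic gene. They were set against 2 genes of the list with differences nearer to 0, chosen after their values were seen. Against Pgk1, a glycolytic gene with a log2 fold change of -1.11, the within-library ratios of the members were lower in Themis cKO. That direction follows from a denominator with a smaller fall, so these ratios give sizes and no further support. Vegfa had 0.445, 0.434 and 0.394 counts per 100 Pgk1 counts in Themis cKO, against 2.0, 2.06 and 1.98 in WT, 4.74-fold lower on the means. For Bnip3, Egln3 and Ndrg1 the corresponding ratios were 4.10-fold, 3.82-fold and 3.61-fold lower. Against Slc2a3, a glucose transporter gene with a log2 fold change of -2.46, they were lower by 1.85-fold for Vegfa, 1.61-fold for Bnip3, 1.51-fold for Egln3 and 1.41-fold for Ndrg1.

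**Figure D5:**
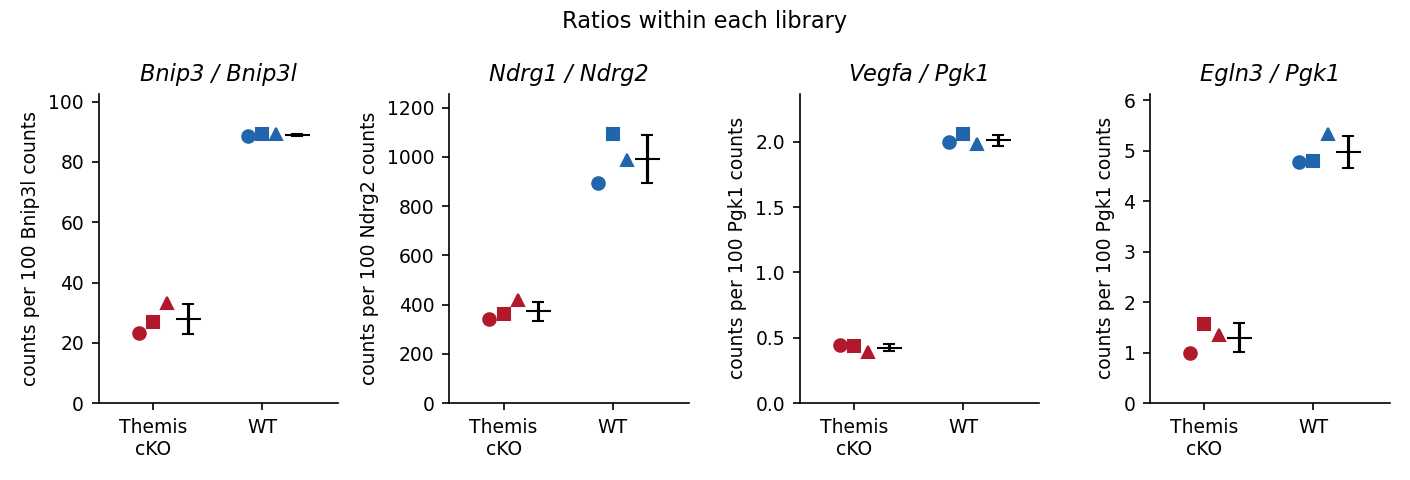
Counts of Bnip3 per 100 Bnip3l counts, of Ndrg1 per 100 Ndrg2 counts, and of Vegfa and Egln3 per 100 Pgk1 counts, within each Themis cKO library (red) and WT library (blue), with the mean ± SD in black. No panel has overlapping genotypes, and Bnip3 to Bnip3l stands at 88.7 to 89.3 in WT against 23.4 to 33.2 in Themis cKO. Each denominator has a smaller fold difference than its numerator, so a lower ratio in Themis cKO follows.

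The genes with the most similar profiles over the 6 libraries were taken from 437 genes with a WT mean of at least 100 scaled counts. Likeness was the root mean square difference of log2 scaled counts after centring on WT. The size of the fall enters this measure, so genes with a like log2 fold change come out near each other. Nearness does not show that genes vary together within a genotype. Nearest to Vegfa were Phf11c (0.07), Nr4a2 (0.10) and Plk2 (0.12). Nearest to Bnip3 were Ddx60 (0.14), Ifit2 (0.21) and Slc16a3 (0.22). For Egln3 they were Ifit2 (0.14), Ddx60 (0.15) and Scd1 (0.18), and for Ndrg1 they were Ddx60 (0.10), Ifng (0.15) and Ifit2 (0.16). Ddx60 and Ifit2 are interferon-induced genes, Slc16a3 encodes the lactate exporter MCT4, and Scd1 encodes a fatty acid desaturase. Slc16a3 had 233, 472 and 525 scaled counts in the Themis cKO libraries, against 3801, 4022 and 3868 in the WT libraries, so it shared the low value of Bnip3 in Themis cKO replicate 1. Scd1 did so as well, with 165, 348 and 364 in the Themis cKO libraries and 2297, 2153 and 2456 in the WT libraries. Both genes were picked for nearness over these same libraries, so nothing is read from the shared low value.

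The same letters were searched upstream of the other hypoxia-pathway genes. A RefSeq window was found for 14 of the 18, and each of the 14 had a match in at least 1 of its windows, against 41.5% of all 27025 genes with a window. The list was drawn up largely from genes already tied to the hypoxia response, so a high share is not a finding of these data. These 14 genes had 24 windows, more per gene than the 32851 windows of all genes, and so more chances of a match. Counted by window, 20 of the 24 (83.3%) held a match, against 38.6% of all windows. Their windows were richer in GC, with a median of 65.2% against 52.4% over all windows. Of the 8115 genes with a window of at least 60% GC, 65.5% had a match in such a window. In the table, 52.4% of 460 genes lower in Themis cKO had a match, as did 45.8% of 144 genes that were higher.

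The authors' deposited table gives log2 values of -2.91 for Vegfa, -2.77 for Bnip3, -2.66 for Egln3 and -2.87 for Ndrg1. These lie closer to 0 than the fitted values by 0.45, 0.37, 0.38 and 0.09, while for Themis the authors' deposited table and the fit both give -2.25. The deposited values of all 18 other hypoxia-pathway genes also lay closer to 0 than the fitted ones. Of the 18 other hypoxia-pathway genes, 15 had a q-value under 0.05 in the authors' deposited table. The exceptions were Bhlhe40, Plin2 and Kdr, with q-values of 0.177, 0.446 and 0.134 in the authors' deposited table.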

How the data were processed

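RNA was extracted with a column kit and sequenced on a DNBSEQ-G400, per the labels' protocols. The submitters' processing notes list DESeq2 1.4.5, RSEM 1.2.12, Bowtie2 2.2.5 and HISAT2 2.0.4 with the GRCm38.p6 genome, and give no role for any of them. What the authors deposited is a single table covering 854 genes, with an estimated count per library (66.1% of values are whole), and per the file headers a log2 fold change, a p-value and a q-value. The rule that picked its genes was not stated in the labels or headers used here.

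Estimated counts were rounded and fitted with edgeR 4.0.16 in R 4.3.3 (quasi-likelihood F-test with a single genotype term) over the 794 genes passing its filter at 10 counts. Genes were called at a Benjamini-Hochberg adjusted p under 0.05, and standard errors were worked back from each fold change with its F statistic. Libraries were scaled by median-of-ratios within a genotype (factors 0.944 to 1.04), with the genotypes at equal depth, since scaling between them cannot be estimated from genes selected by fold change. Total depth is unknown, so precision rests on replicate spread. P-values reflect the spread between the libraries alone, and that spread may be technical. In every replicate pair the counts differed beyond sampling noise (chi-square over its degrees of freedom from 6.10 to 18.9), so none was merged.

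On data simulated for the Themis cKO against WT comparison, 791 genes tested, the fit called 95.7% of 93 genes changed 2-fold, 100% of 90 changed 4-fold and 10 of 608 unchanged. The simulation gave every gene the same replicate variation beyond counting and left most genes unchanged, unlike the table. These rates check the fit and do not carry over to the real data. The members, the gene lists and the tests were chosen with earlier results of these data known. Named genes are the members, Themis, each hypoxia-pathway gene of the table and, per member, the 3 nearest profiles, leaving out predicted genes and pseudogenes. A result that this rule would name is not reported here. P4ha2's promoter, Pgk1 and Slc2a3 were chosen after their values were seen. RefSeq on GRCm38.p6 held 842 of the 854 gene IDs, promoters and coordinates came from RefSeq, and exons from GENCODE M21. Alternatives covered scaling, test (DESeq2 1.42.0), filter, leaving out each library, and a replicate block. Tables and plots were made in Python 3.11.15 (matplotlib 3.10.9, numpy 2.4.6, scipy 1.17.1, pandas 2.3.3).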

Additional observations from a re-analysis of the deposited data

How the results depend on the processing

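Scaling between the genotypes was the choice that moved values. Scalings that centre the table on itself (TMM, DESeq2 size factors in edgeR, and DESeq2 with its own) shifted the median log2 fold change by 1.30. Under each of the 3, Vegfa stood at -2.06, Bnip3 at -1.84, Egln3 at -1.74 and Ndrg1 at -1.66. Calls over the table numbered 435, 435 and 451, against 794, with 211, 211 and 215 lower, against 602, and 224, 224 and 236 higher, against 192. Of the 18 other hypoxia-pathway genes 9 were called under each, 7 lower and 2 higher, against 18 and 0. Signs turned for Zfp395 (0.30 under each), Kdm3a (0.29 under each), Bhlhe40 (0.28, 0.27 and 0.27), Pfkfb3 (0.23, 0.22 and 0.22) and Plin2 (0.19 under each). That shift follows from how these scalings are built, since they set the typical gene of a selected table to no change.

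The other alternatives were no scaling, no low-count filter, the replicate block and each library left out, and no result changed sign or lost its call in the 261 comparisons made. With a library left out, log2 fold changes ranged from -3.38 to -3.33 for Vegfa, -3.35 to -2.96 for Bnip3, -3.19 to -2.86 for Egln3 and -3.05 to -2.85 for Ndrg1. With the replicate block they were -3.35, -3.17, -3.06 and -2.96, and 793 genes were called, 602 of them lower. Same-numbered libraries did not deviate together (r of -0.06, -0.05 and -0.16), and no library correlated best with its own number. These r values come from deviations about the mean of each genotype and are not independent of each other. They do not show whether same-numbered libraries shared an animal or a culture. Depth is unknown, and counts of a few reads limit Kdr.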

Other observations

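If the p-values of the authors' deposited table came from a Wald test, they imply standard errors of 0.47 for Vegfa, 0.37 for Bnip3, 0.40 for Egln3 and 0.23 for Ndrg1, on the log2 scale. The fit to the deposited counts gave 0.13, 0.18, 0.17 and 0.12. For Themis the authors' deposited table implies 0.10 and the fit gave 0.11. Vegfa therefore had the largest implied error of the 4 genes in the authors' deposited table, while its counts had the smallest spread between Themis cKO libraries. That spread was smaller than counting error alone would give (coefficient of variation 2.84% against 10.9%), so little is read from it.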
